A study of Homo sapiens with 6 samples.

Results

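The cadherins, the nonclustered protocadherins and the catenins of SH-SY5Y cells were examined after knockdown of PSF. Members were taken by gene symbol and not by any measured value: protein-coding rows whose symbols are those of numbered cadherins (CDH), cadherin-related genes (CDHR), nonclustered protocadherins (PCDH), seven-pass cadherins (CELSR), FAT and DCHS cadherins, calsyntenins (CLSTN), desmogleins (DSG), desmocollins (DSC) or alpha-, beta- and delta-catenins (CTNN). This gave 43 of the 21301 genes in the table, and 41 of them had enough reads to be tested. SH-SY5Y is a human neuroblastoma line, and both groups were cultures of it, for which the labels give no genetic change. The cells received siControl or an siRNA against PSF (siPSF) at 10 nM and were collected after 72 h, with 3 libraries in each group. According to the study's methods a single siRNA sequence against PSF was used for these libraries, so effects of that sequence and of the loss of PSF cannot be told apart. Poly(A) RNA was sequenced, and for each gene and library the deposited table holds a read count and an FPKM value.

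Cadherins are surface proteins that hold cells together through repeated extracellular domains that bind calcium. Classical cadherins bind beta-catenin and p120-catenin inside the cell, and alpha-catenin joins this complex to the actin cytoskeleton. In neurons the same families guide migration, axon growth and the matching of synapses, the CELSR and FAT-DCHS proteins orient cells within a tissue, and beta-catenin is also the transcriptional effector of WNT signalling. PSF, encoded by SFPQ, is a nuclear RNA-binding protein that acts in transcription, splicing and the maturation of pre-mRNA.

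SFPQ (gene ID 6421), on chromosome 1 of GRCh38 from 35176380 to 35193145, was at 372, 356 and 401 CPM (read counts scaled to library size by edgeR's TMM method) in the siControl libraries and at 209, 193 and 165 CPM in the siPSF libraries. Its log2 fold change, siPSF over siControl, was -0.99 (SE 0.10, adjusted p = 9.5e-05), which left 50.2% of the control level. Total counts per library ran from 101540520 to 132420931. The labelled cell type was checked with marker lists. All 10 adrenergic neuroblastoma markers passed the filter on low counts, and their summed level was 5086 to 5669 CPM in siControl and 4552 to 5502 CPM in siPSF, although TH, which makes catecholamine precursors, stayed under 1 CPM. Of these 10 markers DBH (log2 fold change -0.68) and TH (-1.20) fell and GATA3 (0.30) rose. DBH kept its call when any single library was left out, TH lost it without siControl 2 or siControl 3 (adjusted p up to 0.10), and GATA3 lost it whichever library was left out (0.060 to 0.099). Markers of the mesenchymal neuroblastoma state or of fibroblasts (8 of 9 tested) summed to 194 to 217 CPM and 159 to 200 CPM, and their median log2 fold change was 0.27, with 5 positive and 3 negative. In that list FN1 (-0.60) and COL3A1 (-0.71) were called lower, COL3A1 in only 2 of the 6 fits without 1 library (adjusted p up to 0.17), while COL1A1 (0.55), CD44 (0.52) and SNAI2 (0.39) were not called with edgeR and COL1A1 was called higher with DESeq2 (adjusted p = 0.046). Epithelial markers (5 of 8 tested) summed to 6.47 to 7.74 CPM and 6.65 to 9.95 CPM, and EPCAM (0.86) and ESRP1 (1.41) rose from levels of at most 2.38 CPM. EPCAM lost its call without siControl 3 (adjusted p = 0.075) and ESRP1 without siControl 2, siControl 3 or siPSF 3 (up to 0.12). KRT19 lay the other way without overlap (-0.49, edgeR adjusted p = 0.072, DESeq2 adjusted p = 0.029), and CLDN4 (-0.16) and KRT18 (0.78) were not called. The glial list (2 of 5 tested) and the endothelial list (1 of 4 tested) summed to at most 2.37 CPM in any library. The part of these shifts in the results on cadherins was not tested, and in bulk RNA a smaller number of cells of one state and less RNA per cell cannot be told apart.

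Levels were compared between genes as FPKM, which accounts for exon length. The catenin CTNNB1 was the most abundant member, at 68.0 ± 6.12 FPKM in siControl (SD, n = 3), followed by CTNNA1 at 46.1 ± 1.13 FPKM. CDH2 (33.2 ± 4.19 FPKM) and CLSTN1 (31.5 ± 0.578 FPKM) came next, and their values did not differ beyond their spread. FAT1 (23.1 ± 2.93 FPKM), DCHS1 (23.0 ± 1.01 FPKM), CTNND1 (21.9 ± 1.25 FPKM) and CELSR3 (21.4 ± 0.895 FPKM) formed a further step whose members lay within each other's spread. CDH24 was at 10.7 ± 0.455 FPKM, and all other members were below it. Over all 6 libraries 9 members had a mean of 10 FPKM or more, and 17 had a mean of 1 FPKM or more. The 2 members that did not pass the filter on low counts were CDH1, the epithelial cadherin, and PCDH19. CDH1 was at 0.016, 0.097 and 0.11 CPM in siControl and at 0.042, 0.047 and 0.041 CPM in siPSF, on 2 to 14 reads per library. PCDH19 had 6 to 11 reads per library. Several genes whose symbols fit the rule were not analysed here: CDH5, CDH6, CDH7, CDH9, CDH10, CDH12, CDH13, CDH16, CDH17, CDH18, CDH19, CDHR4, CDHR5, CTNNA3, CTNND2, DCHS2, DSC1, DSC2, DSG1, DSG3 and DSG4.

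**Figure D1:**
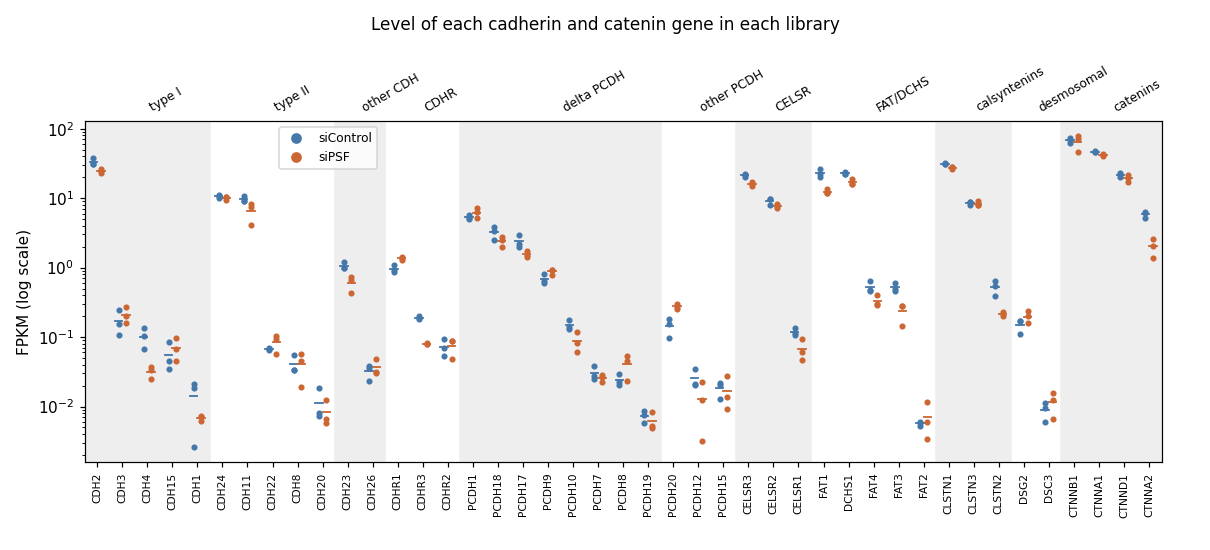
FPKM (log scale) of the 43 cadherin and catenin genes in each siControl and siPSF library, grouped by family and ordered within each family by the siControl mean; points are libraries and short lines are group means. CTNNB1 and CTNNA1 are highest, CDH2 and CLSTN1 follow, and CDH1, PCDH19, FAT2 and DSC3 lie near 0.01 FPKM.

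After siPSF, 14 of the 41 tested members passed an adjusted p of 0.05 in edgeR's quasi-likelihood test (34.1%), beside 15.3% of the 14469 protein-coding genes tested and 14.9% of all 19694 genes tested. Of these calls 11 were falls: CTNNA2, CDH4, CDHR3, CLSTN2, FAT3, FAT1, FAT4, PCDH17, DCHS1, CELSR3 and CDH2. The falls made up 26.8% of the members tested, with 8.58% of protein-coding genes called lower. The 3 rises were PCDH20, CDHR1 and PCDH9, 7.32% of the members tested beside 6.72% of protein-coding genes called higher. The median log2 fold change was -0.11 over the members and 0.012 over protein-coding genes, and 23 of the 41 members had a negative value. In 19 members the siControl and siPSF libraries did not overlap (34.5% of protein-coding genes did the same). These were all 14 called members and CDH11, CTNNA1, CELSR1, CLSTN1 and CDH23. Of the 26 members at a mean level of 1 CPM or higher 10 fell and 3 rose, and of the 15 below 1 CPM 1 fell (CDH4). Of protein-coding genes at 1 CPM or higher, 9.08% were called lower and 7.06% higher, and of those below 1 CPM 5.07% and 4.35%.

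**Figure D2:**
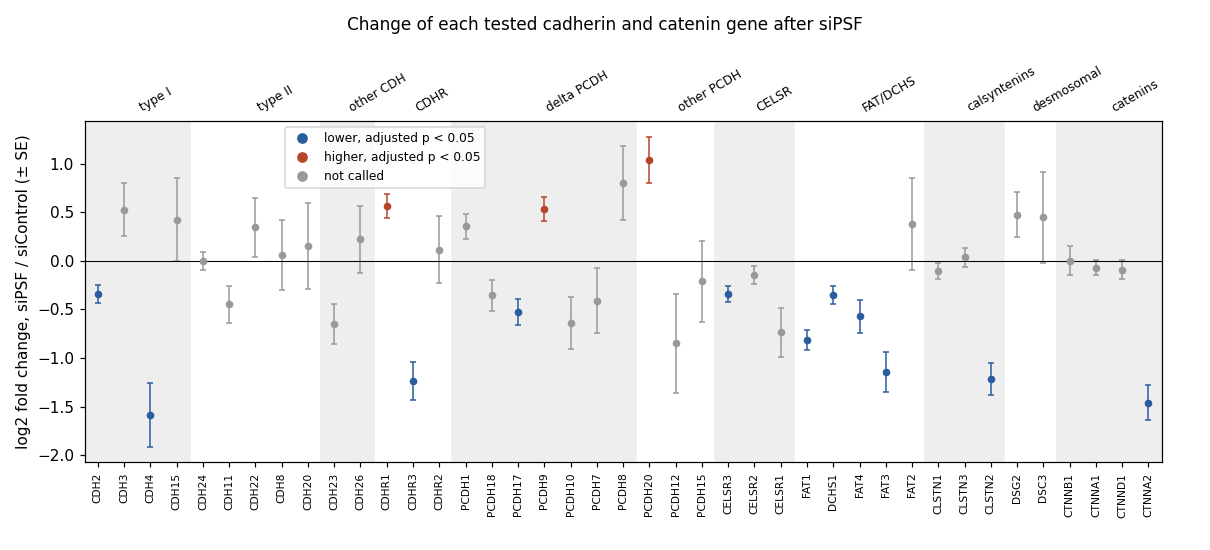
Log2 fold change (siPSF over siControl) with its standard error for the 41 tested members, by family. Blue points fell and red points rose at an adjusted p under 0.05 (11 and 3 members), and grey points were not called; CDH4 and CTNNA2 lie lowest and PCDH20 highest.

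Promoter windows are shown for CTNNA2 and FAT1, the members with the smallest p values among those that fell, and for PCDH9, a long member that rose. Each is the RefSeq window of 300 bases on GRCh38.p14, 250 before and 50 after an annotated start, on the strand of the gene, with every CG in capitals, since unmethylated clusters of CG mark many promoters of broadly active genes. CTNNA2 has 4 such windows and the one at chr2:79512801-79513100 (plus strand), at the start of the GENCODE canonical transcript, is printed. FAT1 has 2, and the printed one at chr4:186723807-186724106 (minus strand) is also the canonical start. PCDH9 has 1, at chr13:67230287-67230586 (minus strand).
CTNNA2: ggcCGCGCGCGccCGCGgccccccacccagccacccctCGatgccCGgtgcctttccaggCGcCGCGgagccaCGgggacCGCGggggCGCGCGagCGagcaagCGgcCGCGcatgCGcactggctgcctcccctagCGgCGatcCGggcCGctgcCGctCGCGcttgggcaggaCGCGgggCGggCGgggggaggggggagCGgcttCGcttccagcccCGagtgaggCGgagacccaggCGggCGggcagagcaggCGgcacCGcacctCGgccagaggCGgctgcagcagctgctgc
FAT1: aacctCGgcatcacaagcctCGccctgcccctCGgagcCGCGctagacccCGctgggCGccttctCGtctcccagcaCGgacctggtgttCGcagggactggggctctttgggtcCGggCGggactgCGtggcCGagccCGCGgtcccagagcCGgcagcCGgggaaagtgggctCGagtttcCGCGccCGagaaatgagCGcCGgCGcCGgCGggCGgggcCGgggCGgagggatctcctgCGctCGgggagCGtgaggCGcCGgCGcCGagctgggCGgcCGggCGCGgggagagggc
PCDH9: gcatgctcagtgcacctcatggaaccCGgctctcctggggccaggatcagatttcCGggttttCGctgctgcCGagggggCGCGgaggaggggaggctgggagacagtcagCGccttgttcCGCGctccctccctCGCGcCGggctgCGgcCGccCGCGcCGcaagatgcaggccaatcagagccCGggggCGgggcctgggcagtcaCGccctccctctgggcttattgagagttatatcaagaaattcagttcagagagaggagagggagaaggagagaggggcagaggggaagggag
The CTNNA2 window holds 43 CG and is 80% G and C, that of FAT1 holds 41 CG and is 76% G and C, and that of PCDH9 holds 20 CG and is 65.7% G and C. These 3 windows do not stand for the other called members: CDHR3 and PCDH17, which fell, hold 3 and 11 CG, and CDHR1, which rose, holds 19. Across all 35116 windows the median was 14 CG, and 48.9% held 15 or more. A window was found for 30 of the 43 members. For each member only the window nearest its canonical start was taken, whereas the 35116 include every window of a gene. For CDH4 and PCDH1 that window lies 247160 and 8783 bases from the canonical start, so it may not be the promoter of the canonical transcript. The median of the 30 was 20 CG, and 18 of them (60%) held 15 or more. Without CDH4 and PCDH1 the median of the remaining 28 was 21.5 CG, and 18 (64.3%) held 15 or more. The letters CACCTG (on either strand, so also CAGGTG) are the E-box that the SNAI and ZEB repressors of cadherin genes can bind. These letters occurred in 20.6% of all windows, in 6 of the 30 member windows (20%) and in none of the 3 printed here. The distant windows of CDH4 and PCDH1 were among those 6. Of the remaining 28 windows, 4 held the letters (14.3%).

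Among the catenins, the neural alpha-catenin fell and the other 3 measured catenins did not pass the test. CTNNA2 (gene ID 1496, chromosome 2 from 79185377 to 80648780) encodes alphaN-catenin, the neuronal link between cadherins and actin. It was at 26.7, 22.1 and 26.3 CPM in the siControl libraries and at 11.5, 9.45 and 6.33 CPM in the siPSF libraries. The groups lay well apart, with siPSF 3 lowest. The mean fell from 25.0 ± 2.53 to 9.09 ± 2.60 CPM (SD, n = 3), a log2 fold change of -1.46 (SE 0.18, adjusted p = 0.00034) or 36.4% of control. CTNNA1 (gene ID 1495), the alpha-catenin of most tissues, was at 185, 186 and 185 CPM in siControl and at 179, 180 and 171 CPM in siPSF. The 2 groups of CTNNA1 did not overlap, but the log2 fold change was only -0.07, with a 95% interval of -0.23 to 0.095 and an adjusted p of 0.59. As a share of the alpha-catenin FPKM, CTNNA2 made up 11.9%, 10.2% and 11.7% in siControl and 5.69%, 4.69% and 3.34% in siPSF. CTNNA1 thus supplied most alpha-catenin mRNA in every library. LRRTM1, a gene of 1.29 CPM that lies inside CTNNA2 on the opposite strand, had a log2 fold change of 0.72 (adjusted p = 0.062), and LRRTM2 inside CTNNA1 (3.48 CPM) rose by 0.71 (adjusted p = 0.019). Whether strand was used in counting is not given in the sources used here, so reads of these neighbours could be shared with their hosts.

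CTNNB1 (gene ID 1499), encoding beta-catenin, was at 273, 229 and 249 CPM in siControl and at 294, 276 and 181 CPM in siPSF. The siPSF libraries therefore spread on both sides of the controls, with siPSF 3 the lowest of all 6. Its log2 fold change was 0.00070 (adjusted p = 0.998), with a 95% interval of -0.32 to 0.32. The data therefore do not exclude a change within those limits. CTNND1 (gene ID 1500), encoding p120-catenin, which keeps cadherins at the membrane, was at 143, 156 and 152 CPM in siControl and 140, 158 and 126 CPM in siPSF. These values overlapped, with a log2 fold change of -0.09 (95% interval -0.29 to 0.12, adjusted p = 0.57).

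Of the type I classical cadherins, whose members bind mostly their own kind, CDH2 and CDH4 fell. CDH2 (gene ID 1000, chromosome 18 from 27932879 to 28177130), N-cadherin, is the main cadherin of neural cells. It was at 134, 135 and 159 CPM in siControl and at 112, 107 and 120 CPM in siPSF, without overlap. The log2 fold change was -0.34 (SE 0.092, adjusted p = 0.029), to 79.2% of control. This call was lost without siControl 2, siControl 3, siPSF 1 or siPSF 2, with adjusted p values of 0.055, 0.077, 0.092 and 0.093. It held without siControl 1 (adjusted p = 0.034) or siPSF 3 (0.014). CDH4 (gene ID 1002, chromosome 20 from 61252261 to 61940617), R-cadherin of retina and brain, was at 0.987, 0.750 and 0.469 CPM in siControl and at 0.261, 0.190 and 0.284 CPM in siPSF. Every siPSF library was below every control, at a low level. Its log2 fold change was -1.58 (SE 0.33, adjusted p = 0.0075), the most negative among the members. CDH3 and CDH15 had log2 fold changes of 0.53 and 0.42 and were not called.

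No type II classical cadherin was called, out of 5 tested with edgeR or with DESeq2, and 1 had an unadjusted p under 0.05. CDH24 (gene ID 64403), the type II cadherin of highest FPKM, was at 42.0, 40.7 and 37.1 CPM in siControl and at 40.5, 41.7 and 37.6 CPM in siPSF. These values overlapped throughout, with a log2 fold change of 0.00034 and a 95% interval of -0.20 to 0.20 (adjusted p = 0.999). CDH11 (gene ID 1009), a cadherin of mesenchymal and some neural cells, was the member with the unadjusted p under 0.05. It was at 62.2, 62.8 and 74.1 CPM in siControl and at 59.2, 56.3 and 30.6 CPM in siPSF. The groups did not overlap, but most of the difference lay in siPSF 3, and the log2 fold change of -0.45 had an adjusted p of 0.14. CDH8, CDH20 and CDH22 were under 1 CPM, with log2 fold changes of 0.06 to 0.35. Summed over the type I and type II cadherins, the FPKM went from 54.0 ± 4.81 to 42.0 ± 1.79 (siControl to siPSF, SD, n = 3), again without overlap. CDH2 made up 59.6% to 63.9% of this sum in siControl and 56.0% to 65.2% in siPSF, so its share of the sum overlapped between groups while its level did not. CDH11 made up 10.1% of the sum in siPSF 3 and 17.6% to 18.6% in the other 5 libraries.

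The giant FAT and DCHS cadherins, which bind each other across neighbouring cells in planar polarity and growth control, fell in 4 of the 5 members tested. Of protein-coding genes 8.58% were called lower, and 25.1% of those that span 100 kb or more, as FAT1, FAT3 and FAT4 do. FAT1 (gene ID 2195, chromosome 4 from 186587794 to 186726696) was at 333, 367 and 410 CPM in siControl and at 196, 232 and 204 CPM in siPSF. It was thus lower in all siPSF libraries, by a log2 fold change of -0.81 (SE 0.10, adjusted p = 0.00035), which left 56.9% of control. FAT3 (gene ID 120114), which shapes neuronal processes in the retina, was at 10.4, 9.80 and 12.1 CPM in siControl and at 5.67, 5.85 and 3.07 CPM in siPSF. Its log2 fold change was -1.14 (SE 0.20, adjusted p = 0.0032), with siPSF 3 again lowest. FAT4 (gene ID 79633), the receptor that pairs with DCHS1, was at 8.58, 8.56 and 11.6 CPM in siControl and at 5.69, 5.71 and 7.99 CPM in siPSF. The highest siPSF value lay just under the lowest control, and the log2 fold change was -0.57 (SE 0.17, adjusted p = 0.039). DCHS1 (gene ID 8642), the ligand of FAT4, was at 258, 281 and 253 CPM in siControl and at 193, 230 and 198 CPM in siPSF, without overlap. Its log2 fold change was -0.35 (SE 0.092, adjusted p = 0.023). Both genes of this receptor-ligand pair therefore fell, but neither call held in every subset of libraries. Leaving out siControl 2, siControl 3, siPSF 1 or siPSF 2 gave adjusted p values of 0.068, 0.16, 0.13 and 0.10 for FAT4, and leaving out siControl 2 or siPSF 1 gave 0.094 and 0.10 for DCHS1. FAT1 made up 95.6% of the summed FPKM of FAT1 to FAT4 in either group. FAT2, at 0.061 to 0.21 CPM and overlapped on the other strand by the more abundant SLC36A1, had a log2 fold change of 0.38 and was not called.

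Of the 3 CELSR cadherins, the seven-pass receptors of planar cell polarity and axon tract formation, CELSR3 fell. CELSR3 (gene ID 1951) was at 266, 290 and 268 CPM in siControl and at 211, 232 and 206 CPM in siPSF. Each siPSF library was below each control, and the log2 fold change was -0.34 (SE 0.084, adjusted p = 0.018). Without siControl 2 or siPSF 1 the adjusted p was 0.075 or 0.077. CELSR2, at 107 ± 10.9 CPM against 96.9 ± 6.40 CPM (SD, n = 3), had overlapping libraries (log2 fold change -0.14, adjusted p = 0.34). CELSR1, at 1.47 ± 0.204 and 0.881 ± 0.313 CPM, did not overlap between groups but was not called (log2 fold change -0.73, adjusted p = 0.072; 0.016 without siPSF 2). The 3 genes differed in level, since CELSR3 was at 21.4, CELSR2 at 9.06 and CELSR1 at 0.12 FPKM in siControl.

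The nonclustered protocadherins, single genes outside the alpha, beta and gamma clusters, moved in both directions. Among the 7 delta protocadherins tested, whose cytoplasmic tails carry conserved motifs and which act in axon growth and cell sorting, PCDH17 fell and PCDH9 rose. PCDH17 (gene ID 27253) was at 18.1, 19.7 and 25.6 CPM in siControl and at 15.97, 13.6 and 14.5 CPM in siPSF. The groups did not overlap, and the log2 fold change was -0.52 (SE 0.13, adjusted p = 0.021). Without siControl 3 or siPSF 2 the adjusted p was 0.072 or 0.060. PCDH9 (gene ID 5101, chromosome 13 from 66302834 to 67230336) was at 14.8, 14.1 and 18.3 CPM in siControl and at 24.4, 23.2 and 20.6 CPM in siPSF. All siPSF libraries were above all controls, by a log2 fold change of 0.54 (SE 0.12, adjusted p = 0.011), or 145% of control. With limma on log2(FPKM + 0.5) in place of counts, PCDH9 was not called (log2 fold change 0.23, adjusted p = 0.21). With 0.1 added instead, limma gave a log2 fold change of 0.33 (adjusted p = 0.22). Its means were 0.69 FPKM in siControl and 0.88 FPKM in siPSF. On FPKM the groups overlapped, with siControl 3 at 0.82 and siPSF 3 at 0.78. Why counts and FPKM differed for PCDH9 was not tested. PCDH1 (gene ID 5097), the delta protocadherin of highest FPKM, was at 32.4, 29.5 and 29.0 CPM in siControl and at 38.7, 46.4 and 31.1 CPM in siPSF. Its siPSF 3 value lay within the controls, and the log2 fold change of 0.36 was not called (adjusted p = 0.085; 0.0056 without siPSF 3). PCDH10 was not called either (log2 fold change -0.64, adjusted p = 0.13; 0.039 without siPSF 3). PCDH7, PCDH8 and PCDH18 had log2 fold changes of -0.41, 0.80 and -0.35.

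Outside the delta group, PCDH20 (gene ID 64881) was at 0.797, 0.502 and 0.897 CPM in siControl and at 1.62, 1.41 and 1.49 CPM in siPSF. It rose to 206% of control without overlap, with a log2 fold change of 1.04 (SE 0.24, adjusted p = 0.012) and a level of 0.28 ± 0.022 FPKM in siPSF. Both rises of protocadherins were lost without siControl 2, where the adjusted p was 0.057 for PCDH20 and 0.073 for PCDH9. PCDH12, the vascular protocadherin, and PCDH15, a tip-link protein of hair cells, stayed under 0.31 CPM and were not called.

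The 3 CDHR genes split. CDHR1 (gene ID 92211), a photoreceptor cadherin, was at 8.15, 6.91 and 6.45 CPM in siControl and at 10.5, 11.3 and 10.1 CPM in siPSF, a rise without overlap. Its log2 fold change was 0.57 (SE 0.12, adjusted p = 0.010), and 0.53 with an adjusted p of 0.058 without siControl 2. CDHR3 (gene ID 222256), known as the airway receptor of rhinovirus C, was at 1.53, 1.67 and 1.40 CPM in siControl and at 0.648, 0.654 and 0.649 CPM in siPSF. The siPSF values were nearly identical to each other and all lay under the controls. The log2 fold change was -1.24 (SE 0.20, adjusted p = 0.0016). CDHR2 had a log2 fold change of 0.11 on a mean of 0.36 CPM, inside a region where RNF44 and GPRIN1 lie on the opposite strand at 155 and 103 CPM.

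Calsyntenins are cadherin-repeat proteins that bind kinesin and act at synapses, and CLSTN2 was the one that fell. CLSTN2 (gene ID 64084, chromosome 3 from 139935185 to 140577397) was at 6.01, 8.53 and 9.43 CPM in siControl and at 3.62, 3.43 and 3.27 CPM in siPSF. The siPSF libraries lay close together under all controls, with a log2 fold change of -1.22 (SE 0.17, adjusted p = 0.00065) or 43.1% of control. CLSTN1 (gene ID 22883), the most abundant of the family, was at 168, 181 and 169 CPM in siControl and at 151, 164 and 165 CPM in siPSF. Its groups were separate by a narrow margin, and the log2 fold change of -0.11 (95% interval -0.28 to 0.068) was not called (adjusted p = 0.41). CLSTN3 had a log2 fold change of 0.04.

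Among the remaining CDH genes, CDH23 (gene ID 64072), the other tip-link cadherin, was at 6.256, 5.209 and 5.201 CPM in siControl and at 3.89, 4.41 and 2.31 CPM in siPSF. The groups did not overlap, but the log2 fold change of -0.65 (SE 0.21) had an adjusted p of 0.053, which was 0.021 without siPSF 2 and 0.0081 with DESeq2. CDH26 was at 0.19 to 0.39 CPM and was not called. The desmosomal cadherins, which anchor intermediate filaments in epithelia and heart, were at low levels. DSG2 had 93 to 161 reads per library, and DSC3, with 6 to 15, was near the limit of detection. DSG2 (gene ID 1829) was at 1.05, 0.697 and 1.01 CPM in siControl and at 1.27, 1.53 and 1.04 CPM in siPSF. These values overlapped, and the log2 fold change of 0.48 was not called (adjusted p = 0.20). DSC3 was at 0.052 to 0.14 CPM, with a log2 fold change of 0.45.

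**Figure D3:**
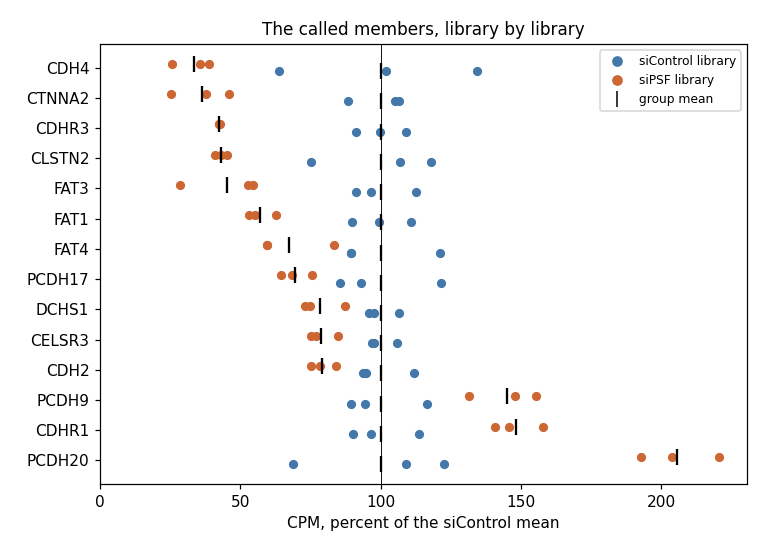
CPM of the 14 called members in each library as a percent of the siControl mean of that gene, ordered by log2 fold change; blue points are siControl libraries, orange points siPSF libraries and black ticks group means. CDH4 and CTNNA2 lie farthest left in siPSF and PCDH20 farthest right, and in no gene do the groups overlap.

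Several members are among the longest human genes, and the changes were set beside gene span, the distance from the first to the last base of the gene in RefSeq on GRCh38.p14. Of the 17 tested members of 100 kb or more, 7 fell (CTNNA2, CDH4, FAT3, CLSTN2, CDH2, FAT4 and FAT1) and PCDH9 rose, and their median log2 fold change was -0.45. Of protein-coding genes of that span 25.1% were called lower and 2.67% higher, with a median of -0.17. Of the 24 tested members under 100 kb, 4 fell (CDHR3, PCDH17, DCHS1 and CELSR3) and 2 rose (CDHR1 and PCDH20), with a median of 0.018. The corresponding protein-coding genes were called lower in 4.64% and higher in 7.69%, with a median of 0.045. The share of falls was thus higher in long than in short genes, both for the members and for protein-coding genes at large.

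Apart from CDHR3, the 4 members with the largest falls span 642 kb or more and hold very long introns in their GENCODE canonical transcripts. CTNNA2 spans 1463 kb with an intron 7 of 483 kb, and CDH4 spans 688 kb with an intron 2 of 489 kb. FAT3 spans 672 kb with an intron 3 of 172 kb, and CLSTN2 spans 642 kb with an intron 1 of 240.5 kb. PCDH9 spans 928 kb and has an intron 4 of 326 kb, yet it rose. Among the 10 members with an intron of 100 kb or more 5 fell and 1 rose, beside 44.4% lower and 1.15% higher among the 693 protein-coding genes with such an intron. In the longest of 20 equal bins of span, which runs from 272 to 2474 kb, the median protein-coding gene had a log2 fold change of -0.40 and 45.1% were called lower. Relative to that median CTNNA2 was at -1.06, CDH4 at -1.18, CLSTN2 at -0.82, FAT3 at -0.74 and PCDH9 at 0.94. PCDH15, the longest member at 1825 kb, was at 0.19 on that scale but at under 0.31 CPM. CDHR3, with a span of 73.2 kb and a longest intron of 11.5 kb, was at -1.22 relative to its own bin, in which 7.63% of genes were called lower.

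**Figure D4:**
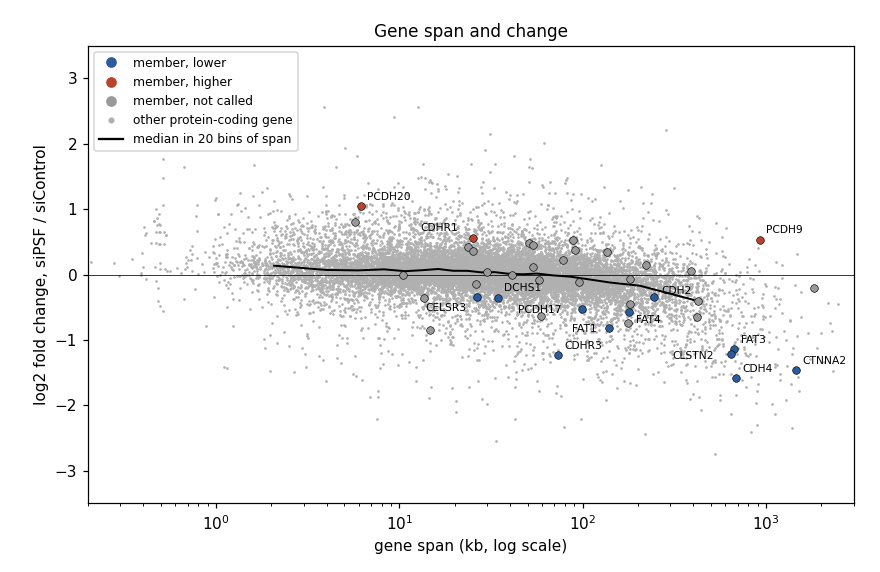
Log2 fold change (siPSF over siControl) against gene span (kb, log scale) for 14377 other protein-coding genes (small grey points), with their median in 20 bins of span (black line), and for the tested members (large points, coloured by call). CTNNA2, CDH4, CLSTN2 and FAT3 lie below the line at the right, and PCDH9 lies above it.

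Genes that act with cadherins and catenins were taken as 6 lists of non-members, and 4 of the 75 tested fell (5.33%) while none rose, beside 8.58% of protein-coding genes called lower and 6.72% higher. Their median log2 fold change was -0.03. With an unadjusted p under 0.05, 9 were lower and 4 higher, beside 2271 and 2161 of the 14469 protein-coding genes tested. DESeq2 called 6 partners lower and 0 higher, beside 1585 and 1186 of those protein-coding genes. Of the 18 adherens junction partners 3 fell (16.7%). They were PKP4, a p120-related protein (log2 fold change -0.42, adjusted p = 0.014; 0.051 without siControl 3), and the nectins NECTIN3 (-0.48, adjusted p = 0.023) and NECTIN1 (-0.36, adjusted p = 0.029), which start cell contacts before cadherins join them. When single libraries were left out in turn, NECTIN3 kept its call in 3 of 6 cases and NECTIN1 in 2 of 6, with adjusted p values up to 0.084 (NECTIN3) and 0.12 (NECTIN1). Of the 20 planar polarity and FAT pathway partners DVL3, a dishevelled scaffold, fell (-0.40, adjusted p = 0.048). DVL3 was at 211 and 221 CPM in siPSF 1 and 2 but at 303 CPM in siPSF 3, beside 308 to 340 CPM in siControl, and it kept its call in 1 of those 6 cases, with an adjusted p of up to 0.17.

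In the other lists no gene was called with edgeR. Their counts at an unadjusted p under 0.05 and with DESeq2 stand beside the protein-coding counts given above. The 10 proteases that cut or mature cadherins, including ADAM10 and the gamma-secretase subunits, had log2 fold changes of -0.12 to 0.19, and none had an unadjusted p under 0.05 or a call with DESeq2. The 17 beta-catenin partners and targets had a median of 0.0057. In that list APC was lowest (-0.40, adjusted p = 0.072), while AXIN2, a direct target of beta-catenin, was at -0.03, and 2 genes had an unadjusted p under 0.05 and DESeq2 called 1 lower. The 7 repressors of cadherin genes and EMT factors had a median of -0.10, with TWIST1 at -0.10, ZEB1 at -0.25, SNAI2 at 0.39 and SNAI3 at 0.80, and 2 had an unadjusted p under 0.05 but none was called with DESeq2. The 4 desmosome plaque genes tested (JUP, PKP2, PKP3 and PPL) had log2 fold changes of 0.13 to 0.44, of which 1 had an unadjusted p under 0.05 and none a call with DESeq2.

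**Figure D5:**
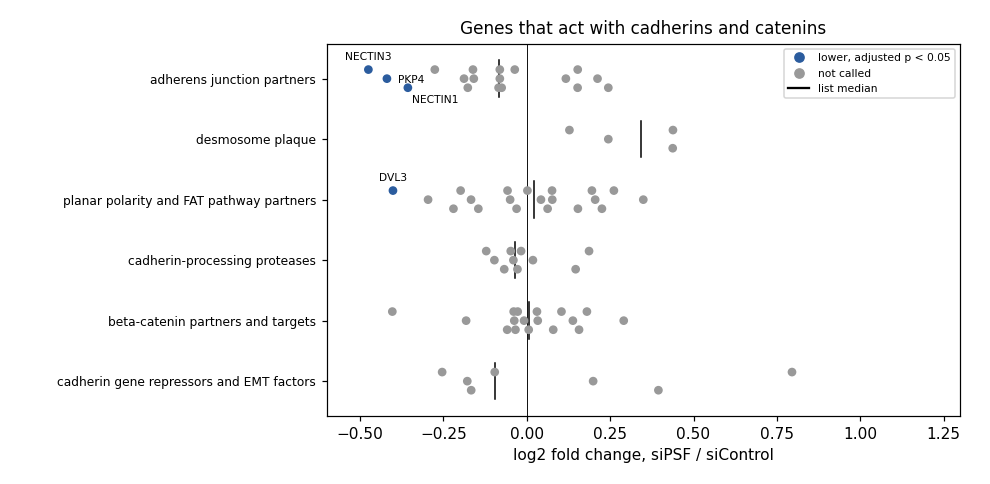
Log2 fold change (siPSF over siControl) of the tested partner genes in 6 lists, each point a gene and each black tick a list median. The 4 blue points (NECTIN3, PKP4, NECTIN1 and DVL3) fell at an adjusted p under 0.05, and the grey points were not called.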

How the data were processed

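RNA-seq of SH-SY5Y cells, 3 siControl and 3 siPSF libraries, was analysed, with groups and replicate numbers taken from the sample titles. The authors deposited 1 table with raw counts and FPKM values per gene and library. To make them, the methods name poly(A) selection, removal of rRNA reads with Bowtie 2, mapping with TopHat to hg38 and tag counts on RefSeq, whereas the submitters' processing notes name Trimmomatic, HISAT2 2.1.0, StringTie 2.1.3b and GRCh38. The kit is unstranded in the methods and stranded in the labels, and the use of strand in counting is not given in the sources used here. No gene in the table has a count of 0 in any library, so a gene without reads in 1 library is not analysed here.

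The deposited counts were filtered with filterByExpr (19694 genes left), normalized by TMM (factors 0.964 to 1.05) and fitted with edgeR 4.0.16 (R 4.3.3), quasi-likelihood test, with the group as the only term. P-values were adjusted by Benjamini-Hochberg over all genes tested, and a gene was called under 0.05. The deposited FPKM values served for levels between genes and for limma 3.58.1 on log2(FPKM + 0.5) for genes averaging 0.5 FPKM or higher. Replicate libraries differed by more than sampling noise (chi-square per degree of freedom of at least 21.7), and the study calls them biological replicates. Spans and promoter windows came from RefSeq (GRCh38.p14), introns and strands from GENCODE 44. Alternatives left out each library, added a replicate block, or used DESeq2 1.42.0 size factors, no filter on low counts, the DESeq2 Wald test (no adjusted p for 1652 genes), FPKM, or other limits of span. Members are given in full if called, if they are CDH1, CDH2 or a catenin, or if they have the highest FPKM of their family. Other members with values were chosen after their values were seen. The members and lists were chosen with earlier results of these data known.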

Additional observations from a re-analysis of the deposited data

How the results depend on the processing

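No called member changed direction under any alternative, and the calls of CDHR3, CLSTN2, CTNNA2, FAT1 and FAT3 held under every alternative in which each was tested. Over 22 named members, 251 of 287 alternative values kept the side of the threshold, 27 lost the call and 9 gained one. Leaving out 1 library gave 7 to 12 members lower, 0 to 4 higher, 5 to 7 lower among those of 100 kb or more, 0 to 3 partner genes lower, 0 to 1 partner genes higher (1 without siPSF 3), and a member median of -0.21 to -0.087. Among these fits, all 3 rises lost the call without siControl 2 and in no other. With limma on FPKM, 6 of the called members were under the FPKM minimum. There, with an offset of 0.5 or 0.1, 7 members were lower, 1 higher and 4 lower among those of 100 kb or more, and the member median was -0.22 with the offset of 0.1. Without that minimum 1 member was higher and 2 partners lower, and CDH4 (adjusted p = 0.053), CDHR1, FAT4, PCDH17 and PCDH9 lost the call. With FPKM scaled to equal sums in all libraries, which moved the median of all genes to -0.16, 0 members were higher, 18 partners lower and the member median -0.32. There CDH11, CLSTN1 and CTNNA1 were called lower (adjusted p = 0.046, 0.012 and 0.027). The fits with the FPKM minimum tested 19 members and the fit without it tested 43. The cause of these changes was not tested.

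Same-numbered siControl and siPSF libraries deviated from their group means with correlations of -0.022, 0.056 and 0.056, so the numbers were not taken as pairs. With a replicate block 13 members were lower, 3 higher and 9 lower among those of 100 kb or more, the member median was -0.11, 3 partners were lower and 0 higher, and SFPQ was at -0.9988 (log2 fold change). The block added CDH23 and CELSR1, as did the DESeq2 Wald test. Members under 1 CPM have wide errors, such as an SE of 0.47 on the log2 scale for FAT2 and DSC3.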
